A study of Mus musculus with 6 samples.

Results

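The 10 genes of matrix turnover were followed across the cells of the mouse heart after infarction: the matrix metalloproteinases Mmp2, Mmp3, Mmp12, Mmp13, Mmp14 and Mmp19 and the tissue inhibitors Timp1, Timp2, Timp3 and Timp4. They were chosen by symbol, and all 10 were found among the 32285 genes of the count matrices. Single-cell RNA sequencing was run on ventricular cells other than cardiomyocytes, dissociated with thermolysin and papain and sorted as live cells by Calcein-AM and DAPI. The 6 groups were wild-type mice (WT, strain C57BL/6JRj) and Trpm4 knockout mice (KO, strain B6.Cg-Trpm4tm1.2-PG), each 24 h after a sham operation, 24 h after the LAD coronary artery was tied off (ligation), or 72 h after it. All mice were males of 8 to 12 weeks. Each group had 1 library made from the pooled cells of 4 mice, no sham library at 72 h was analysed here, and the strain names differ between the genotypes. No difference below therefore has a replicate check, no test was made, and every 95% interval covers counting error only. A level is the summed count of unique molecular identifiers (UMIs) of a gene in a cell class of a library, scaled to the total UMIs of that class and given in CPM, the usual counts-per-million unit. A difference is called past 2-fold where the ratio of CPM is at least 2 in either direction, with at least 50 UMIs over both libraries and at least 100 cells of the class in both.

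Matrix metalloproteinases are zinc-dependent proteases that cut collagens, elastin and other matrix proteins, and most are secreted as inactive proenzymes. The TIMPs bind their catalytic site and block it. In the infarcted heart these enzymes take part in clearing and rebuilding the matrix, and their balance with the inhibitors is a classical theme of scar formation and ventricular dilation. UMI levels describe mRNA, not proenzyme activation or activity.

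The 6 libraries held 34940 deposited cells and 199708815 UMIs, of which 32085 cells were kept. They fell into 36 clusters, formed without the 10 genes, and 34 were named from marker genes. The KO library at ligation 72 h stood apart: its kept cells had a median of 1350 UMIs against 3073 to 8011 in the other 5. Its fibroblasts held 16365 CPM of 18 monocyte/macrophage markers against 2428 to 5171 CPM in the fibroblasts of the other libraries, and its endothelial cells 10094 CPM against 601 to 1493 CPM. Between 26 and 48 cell barcodes of each library also occurred in another library. Over all deposited cells, Trpm4 was at 8.79 CPM (WT) and 6.20 CPM (KO) after sham, then 5.52 and 3.46 CPM 24 h after ligation, and finally 4.29 and 2.57 CPM. It was lower in KO at each condition, but 3' tags can lie outside a deleted part and then check no genotype label.

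Mmp13 (ENSMUSG00000050578, chr9:7272514-7283331), Mmp12 (ENSMUSG00000049723, chr9:7344381-7369499) and Mmp3 (ENSMUSG00000043613, chr9:7445822-7455975) lie within 183 kb of each other on the plus strand of chromosome 9 (GRCm38, GENCODE M21). The 250 bases before their starts are shown because these neighbours share a sequence motif, while Mmp3 lay in fibroblasts and both others in monocyte/macrophage cells. Capitals mark TGANTCA, a form of the AP-1 site, which was searched on both strands (it is its own reverse complement) and was the only motif searched. The sequences are from RefSeq (GRCm38.p6), written 5′ to 3′ on the plus strand, from chr9:7272264-7272513, chr9:7347124-7347373 and chr9:7445572-7445821.
Mmp13: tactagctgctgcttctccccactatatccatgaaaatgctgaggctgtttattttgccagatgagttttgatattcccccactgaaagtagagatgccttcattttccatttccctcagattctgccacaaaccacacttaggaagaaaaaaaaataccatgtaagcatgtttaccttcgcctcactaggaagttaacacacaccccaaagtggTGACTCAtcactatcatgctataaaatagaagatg
Mmp12: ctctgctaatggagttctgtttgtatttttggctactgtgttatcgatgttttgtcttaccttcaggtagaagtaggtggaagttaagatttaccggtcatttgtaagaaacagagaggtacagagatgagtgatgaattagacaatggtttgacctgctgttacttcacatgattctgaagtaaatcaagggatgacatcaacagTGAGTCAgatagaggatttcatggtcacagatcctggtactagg
Mmp3: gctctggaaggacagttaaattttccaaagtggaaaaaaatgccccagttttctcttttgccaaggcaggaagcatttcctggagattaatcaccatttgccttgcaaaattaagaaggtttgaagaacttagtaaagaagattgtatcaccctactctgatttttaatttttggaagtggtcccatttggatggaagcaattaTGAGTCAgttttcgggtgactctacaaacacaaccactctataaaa
The motif began 35 bases before the start of Mmp13, 44 before this start of Mmp12 and 46 before that of Mmp3. The start of Mmp12 used here lies inside the gene span given above, and the window at its outer start (chr9:7344147-7344396) did not hold the motif. Promoter windows were found for 8 of the 10 genes, with a further window for Mmp12, and 3 of these 9 windows held the motif, against 6.75% of all 32817 promoter windows of the same length. The other genes map to chromosomes 8 (Mmp2, ENSMUSG00000031740, chr8:92827291-92853420), 14 (Mmp14, ENSMUSG00000000957, chr14:54431612-54445364), 10 (Mmp19, ENSMUSG00000025355, chr10:128790910-128800824, and Timp3, ENSMUSG00000020044, chr10:86300372-86349506), X (Timp1, ENSMUSG00000001131, chrX:20870166-20874735), 11 (Timp2, ENSMUSG00000017466, chr11:118301069-118355740) and 6 (Timp4, ENSMUSG00000030317, chr6:115241892-115252205).

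Each gene had its own distribution over the cell classes. For 8 of the 10 genes 1 class held over 50% of the UMIs, as a mean of the 6 libraries. The same count over all genes was not made, so it cannot be said whether this is particular to the 10 genes. Fibroblasts held 91.6% of the UMIs of Mmp2, a gelatinase, 98.7% of those of Mmp3, a stromelysin of broad substrate range, and 67.4% of those of Timp1, the inducible secreted inhibitor. Monocyte/macrophage cells held 79.8% of the UMIs of Mmp12, the macrophage elastase, and 92.4% of those of Mmp13, a collagenase. They also held 72.7% of the UMIs of Mmp19 and 53.3% of those of Mmp14, the membrane-bound activator of the Mmp2 proenzyme. This share of Mmp14 ranged from 39.6% to 68.1% between libraries, with 18.2% to 39.4% in fibroblasts. In CPM, Mmp14 was higher in fibroblasts than in monocyte/macrophage cells in every library. Endothelial cells held 92.8% of the UMIs of Timp4, an inhibitor known for its expression in the heart. Timp2, which also takes part in the activation of the Mmp2 proenzyme, was divided between fibroblasts (39.0%) and monocyte/macrophage cells (37.7%). Timp3, the inhibitor that stays bound to matrix, was divided between endothelial cells (45.7%) and fibroblasts (31.5%). These shares depend on how many cells of each class entered a library as well as on the level in each cell.

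**Figure D1:**
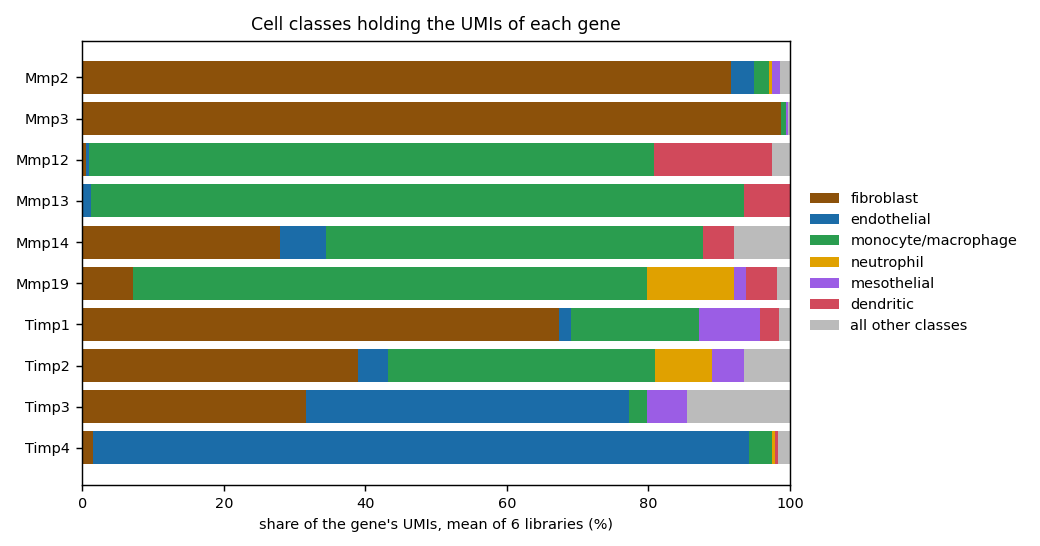
Horizontal bars give the share of the UMIs of each gene held by each cell class (x axis, %, mean of 6 libraries with equal weight). Mmp2, Mmp3 and Timp1 lie mostly in fibroblasts, Mmp12, Mmp13 and Mmp19 mostly in monocyte/macrophage cells, and Timp4 in endothelial cells.

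The first comparison asked what ligation changed by 24 h. In WT, 22 combinations of gene and class could be measured in the 4 main classes (fibroblast, endothelial, monocyte/macrophage and neutrophil), and 8 were past 2-fold (5 higher, 3 lower). Over all genes measured in these classes the share was 8.05% (3.88% higher, 4.17% lower). In KO, 9 of 23 were past 2-fold (4 higher, 5 lower), against 8.69% of all genes (3.12% higher, 5.57% lower). The combinations share classes and genes and are not independent. Counting only classes that reached at least 0.25 of the highest level of a gene, a restriction chosen after seeing the data, left 4 in WT and 4 in KO. The shares of all genes given above were not restricted in this way and cannot be set beside these counts. Beside this, 16 genes known to respond to tissue dissociation had median log2 ratios of 1.006 in fibroblasts, 1.28 in endothelial cells and 0.62 in monocyte/macrophage cells of WT, and of 0.35, 0.52 and 0.18 in KO. Their part in the results was not tested.

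Timp1 was higher in fibroblasts after ligation in both genotypes. Its level was 721.5 CPM in WT sham, 823.9 CPM in KO sham, 2164 CPM in WT ligation 24 h, 3086 CPM in KO ligation 24 h, 4801 CPM in WT ligation 72 h and 1963 CPM in KO ligation 72 h. All 4 ligation libraries lay above both sham libraries. At 24 h the ratio to sham was 3.00 in WT (95% interval 2.87 to 3.14) and 3.75 in KO (3.60 to 3.90). Among the UMIs of the 4 TIMP genes in fibroblasts, Timp1 took 32.4% in WT sham, 66.0% at ligation 24 h and 90.1% at ligation 72 h. The same shares were 31.1%, 80.4% and 79.5% in KO. UMI capture can differ between genes, so the change of this share is the measurement and not its level.

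No other member was past 2-fold higher in fibroblasts at 24 h. Mmp2 was at 425.5 CPM in WT sham, 440.7 in KO sham, 311.7 (WT) and 257.9 (KO) at ligation 24 h, and 111.9 (WT) and 122.3 (KO) at ligation 72 h. Both sham libraries were thus highest and both libraries at 72 h lowest. Timp3 was at 686.0, 963.8, 522.0, 338.5, 133.1 and 139.2 CPM in the same order, and its KO level at 24 h was 2.85-fold below sham. Timp2 was at 817.0, 855.7, 591.1, 411.4, 396.4 and 364.1 CPM, and its KO level at 24 h was 2.08-fold below sham. Mmp14 was at 91.6, 87.0, 94.8, 95.6, 185.9 and 144.3 CPM, so that both libraries at 72 h lay above the other 4. Mmp19 was at 40.9, 50.2, 30.7, 31.04, 16.98 and 15.5 CPM.

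**Figure D2:**
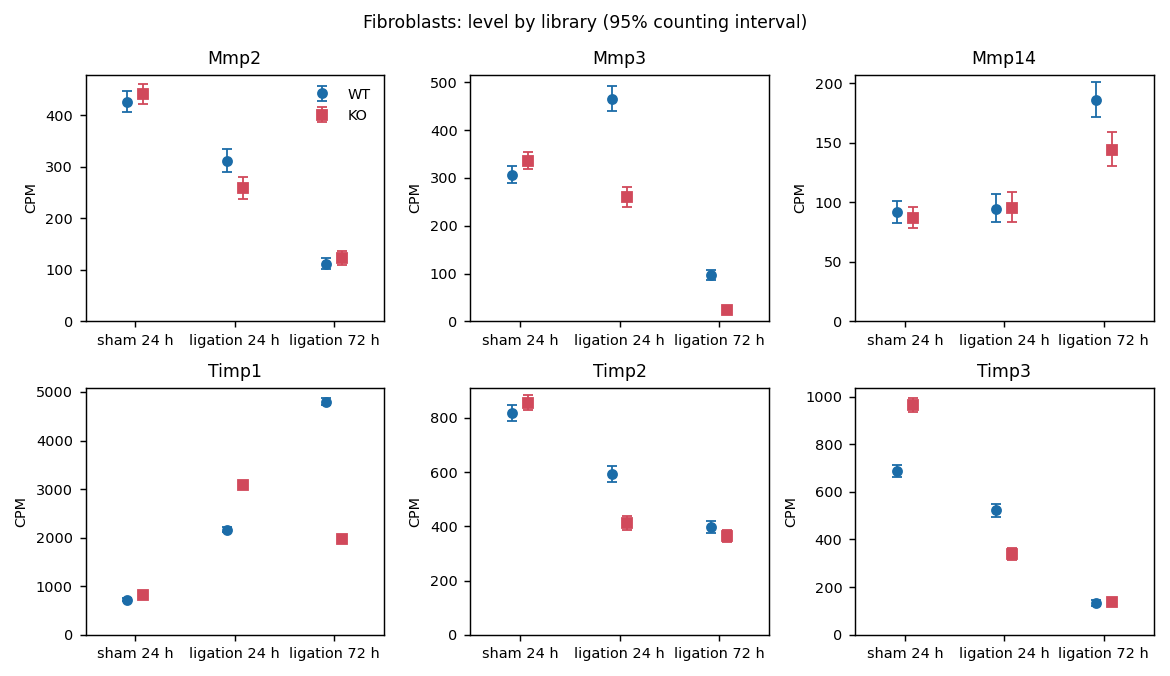
Points give the level in fibroblasts (y axis, CPM) of 6 genes by condition (x axis), with circles for WT and squares for KO, and bars for the 95% counting interval. Timp1 reached 4801 CPM in WT at ligation 72 h, while Mmp2 and Timp3 were lowest at 72 h in both genotypes.

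The fibroblast clusters present differed between conditions, and Mmp2 and Timp1 differed between clusters. Cluster 14, led by Clec3b, Gsn and Dcn, held 79.5% of the fibroblasts in WT sham and 67.1% in KO sham, then 56% and 52.4% 24 h after ligation, and 22.4% and 2.01% after 72 h. Cluster 31, led by Cxcl5, Timp1, Cthrc1 and Tnc, held 29% of the WT and 39.5% of the KO fibroblasts at ligation 24 h. After 72 h it held 50.3% of the WT but 3.46% of the KO fibroblasts. By share of the class UMIs, on which class levels rest, cluster 14 held 68.2% (WT) and 62.0% (KO) after sham. It held 47.1% and 36.5% at 24 h, and 6.43% and 6.52% at 72 h. Cluster 31 held 44.1% and 59.4% of these UMIs at 24 h, and 87.6% and 24.7% at 72 h. Within cluster 14 Mmp2 was at 540.9 CPM in WT sham and 529.3 CPM at ligation 24 h, a ratio of 0.98 (0.89 to 1.07), and the KO ratio was 0.99 (0.89 to 1.09). At ligation 72 h Mmp2 in cluster 14 was at 716.8 CPM in WT and 707.6 CPM in KO, above every earlier library, whereas the whole class was at its lowest. Timp1 lay between 146.2 and 576.6 CPM in cluster 14 in all 6 libraries, and between 3413 and 5339 CPM in cluster 31 in the 5 libraries with enough cells. In cluster 14 Timp1 at 24 h had a log2 ratio to sham of 0.58 in WT and 0.49 in KO, against 1.58 and 1.91 in the whole class.

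Mmp3 in fibroblasts was at 307.0 CPM in WT sham, 336.5 in KO sham, 465.6 (WT) and 260.0 (KO) at ligation 24 h, and 96.7 (WT) and 23.4 (KO) at ligation 72 h. No class ratio at 24 h was past 2-fold. Within cluster 14, however, Mmp3 was at 299.0 CPM in WT sham and 876.1 CPM at ligation 24 h, 2.93-fold higher (2.67 to 3.21), and at 306.3 and 597.3 CPM in KO, 1.95-fold higher (1.74 to 2.18). At 72 h it was 4.13-fold lower than at 24 h in cluster 14 of WT, and in KO only 6 UMIs were counted in 25 cells. Unlike Mmp2, Mmp3 was thus higher at 24 h and lower at 72 h inside this cluster, the KO value at 72 h resting on those 6 UMIs. In the whole class its ratio to sham at 24 h was 1.52 in WT and 0.77 in KO. Timp3 stood highest in cluster 34, led by Dkk3, Wif1 and Prg4, with 2075 CPM in WT sham and 2282 CPM in KO sham, and in cluster 14 it lay between 551.8 and 695.4 CPM in all libraries.

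**Figure D3:**
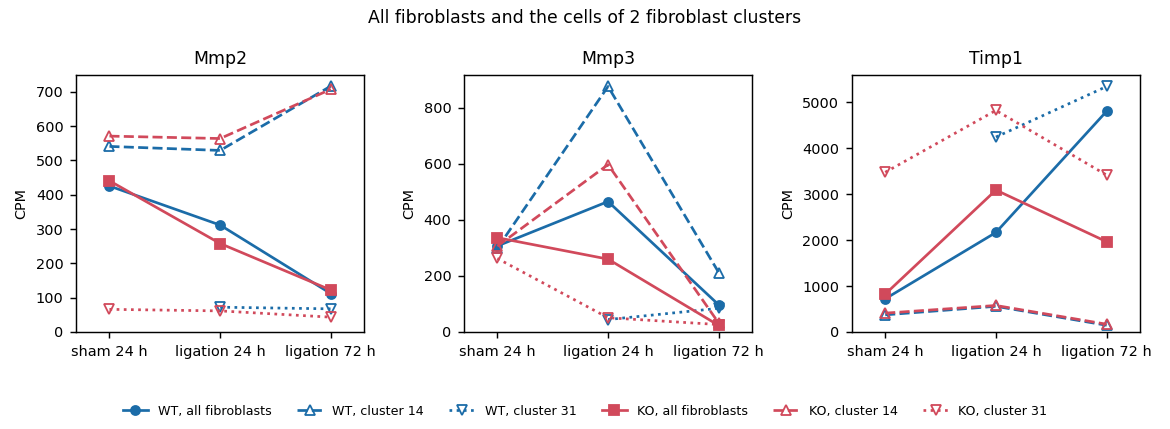
Lines join the levels (y axis, CPM) of Mmp2, Mmp3 and Timp1 over the conditions (x axis) in all fibroblasts (solid), cluster 14 (dashed) and cluster 31 (dotted), for WT and KO, leaving out cluster 31 of WT sham with its few cells. Mmp2 was lowest at 72 h in the whole class and highest at 72 h inside cluster 14, and Timp1 was several-fold higher in cluster 31 than in cluster 14 throughout.

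In monocyte/macrophage cells the 24 h changes differed by gene. Mmp19, a secreted metalloproteinase that is also found in myeloid cells, was at 111.5 CPM in WT sham, 188.6 in KO sham, 227.0 (WT) and 157.8 (KO) at ligation 24 h, and 22.5 (WT) and 27.2 (KO) at ligation 72 h. The WT ratio at 24 h was 2.04 (1.90 to 2.19), and without the cell with the most Mmp19 UMIs in each library it was 1.89. The KO value at 24 h was a log2 ratio of −0.26. Timp2 was at 143.9 CPM in WT sham, 177.0 in KO sham, 62.2 (WT) and 63.5 (KO) at ligation 24 h, and 228.9 (WT) and 175.4 (KO) at ligation 72 h. It was thus low at 24 h in both genotypes, 2.31-fold below sham in WT and 2.79-fold below in KO. The clusters of the class differed too: from sham to 24 h, cluster 7, led by Ccl2, F10 and Cxcl3, where Timp2 is below 50 CPM in every library, went from 11.9% to 38.7% of its cells in WT and from 11.0% to 43.3% in KO. Cluster 17, where Timp2 is between 345.3 and 636.0 CPM, went from 20.8% to 10.8% and from 26.9% to 7.93%.

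Mmp12 was at 25.8 CPM in WT sham, 11.1 in KO sham, 38.2 (WT) and 40.4 (KO) at ligation 24 h, and 39.9 (WT) and 22.2 (KO) at ligation 72 h. Few cells carried it: 2.63% of monocyte/macrophage cells had an Mmp12 UMI in WT sham and 6.68% in WT ligation 72 h, against 0.263% and 0% of fibroblasts, at median depths of 9738 and 11830.5 UMIs in the former and 8823 and 10879 UMIs in the latter. Its KO ratio at 24 h was 3.63 (2.94 to 4.54), and 1 cell held 38.7% of its UMIs in that library. Without the top cell of each library the ratio was 3.18. Mmp13 was at 6.01, 4.93, 28.4, 9.54, 4.43 and 1.69 CPM in the order WT sham, KO sham, WT and KO ligation 24 h, WT and KO ligation 72 h. A single cell held 52.2% of the Mmp13 UMIs in WT ligation 24 h and 73.3% in KO ligation 24 h. Without these cells the WT ratio to sham was 2.80 in place of 4.73, and in KO the level went from above to below sham (2.54 against 4.36 CPM). The clusters that held these genes differed between libraries. Cluster 17, led by Mgl2, Lyve1, Cbr2 and Cd163, genes known from resident macrophages, held 66 of the 67 class UMIs of Mmp13 in WT sham and 39 of 43 in KO sham. At ligation 24 h it held 51 of 247 in WT, where cluster 7 held 140, and 144 of 180 in KO. Without the single cells named above, 118 (WT) and 48 (KO) class UMIs remained. Only cluster 7 in WT and cluster 17 in KO held enough UMIs to contain these cells. The counts of 140 and 144 thus rest mostly on 1 cell each. Of the Mmp12 UMIs, cluster 17 held 153 of 288 in WT sham, and cluster 4, led by Ms4a7, Spp1, Pf4 and Trem2, held 765 of 1170 in WT ligation 72 h.

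Mmp14 in monocyte/macrophage cells was at 55.6 CPM in WT sham, 44.7 in KO sham, 56.4 (WT) and 45.2 (KO) at ligation 24 h, and 60.9 (WT) and 57.9 (KO) at ligation 72 h. It was past 2-fold in no comparison there. Timp1 was at 162.0, 126.1, 147.8, 157.3, 48.6 and 67.8 CPM over the libraries, so that both libraries at 72 h were lowest.

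Endothelial cells showed a low-level gain of Timp1 and Mmp14 with ligation. Mmp14 was at 6.83 CPM in WT sham, 6.64 in KO sham, 32.8 (WT) and 20.1 (KO) at ligation 24 h, and 70.1 (WT) and 59.7 (KO) at ligation 72 h. All ligation libraries lay above both sham libraries, and the ratio to sham at 24 h was 4.80 (3.47 to 6.70) in WT and 3.02 (2.08 to 4.35) in KO. Cluster 11, led by Cldn5, Col4a1 and Col4a2, went from 9.56% to 30.98% of the endothelial cells in WT and from 9.70% to 27.1% in KO between sham and 24 h. Inside it Mmp14 was at 19.7 CPM in WT sham, 64.7 at ligation 24 h and 94.2 at ligation 72 h, and at 17.8, 48.4 and 93.7 CPM in KO. Timp1 in endothelial cells was at 12.99, 11.4, 60.0, 46.7, 73.8 and 98.5 CPM over the libraries. A single cell held 45.4% of its UMIs in WT ligation 24 h, and without the top cells the WT ratio was 3.29 in place of 4.62. These Timp1 levels were at most 5.02% of the fibroblast level of the same library, and the part of RNA from fibroblasts in them was not tested.

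Timp4 in endothelial cells was at 524.7 CPM in WT sham, 789.6 in KO sham, 877.7 (WT) and 936.7 (KO) at ligation 24 h, and 150.1 (WT) and 65.0 (KO) at ligation 72 h. The order of the 6 libraries thus placed ligation 24 h highest and ligation 72 h lowest in both genotypes. Cluster 1 was led by Timp4 itself, then by Aqp1, a water channel, and Fabp4 and Cd36, which handle fatty acids. In this cluster Timp4 was 1.87-fold (1.76 to 1.99) its sham level at 24 h in WT and 1.67-fold (1.58 to 1.77) in KO. In cluster 5, led by Rbp7, Stmn2 and Sox17, the ratios were 2.76 and 1.65, and in cluster 11 they were 2.95 and 1.70. Cluster 26, led by Vwf, Cytl1 and Npr3, held at most 28.2 CPM of Timp4 in any library. Timp3 in endothelial cells was at 763.0, 569.5, 703.5, 556.4, 224.6 and 217.2 CPM in the same order as before.

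Timp3 and Timp4 also passed 2-fold in monocyte/macrophage cells, at levels of 0.636 to 13.5 CPM, at most 3.04% of the highest class of the same library. Endothelial markers also differed between the libraries there: the summed level of the 10 endothelial markers in monocyte/macrophage cells was 239 CPM in WT sham, 730 in KO sham, 132 (WT) and 42.0 (KO) at ligation 24 h, and 274 (WT) and 538 (KO) at ligation 72 h, with all 10 markers detected in each. Timp4 was highest (13.5 CPM) in the KO sham library, where that sum was also highest. In WT it was lowest (0.068 CPM, 2 UMIs) at ligation 72 h, where the sum was above that of WT sham. Timp4 in the endothelial cells themselves was at 877.7 CPM in WT ligation 24 h and 150.1 CPM in WT ligation 72 h. From 24 h to 72 h in KO the Timp4 level went from 0.742 to 1.88 CPM and the Timp3 level from 0.636 to 9.49 CPM. The part of endothelial RNA in these values was not tested.

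The second comparison asked what changed between 24 h and 72 h after ligation. In WT, 12 of 21 measured combinations were past 2-fold (3 higher, 9 lower), against 19.8% of all genes (10% higher, 9.77% lower). In KO 15 of 22 were (5 higher, 10 lower), against 16.5% (10.6% higher, 5.88% lower). The dissociation genes had median log2 ratios of −0.73 in fibroblasts, −0.90 in endothelial cells and −1.20 in monocyte/macrophage cells of WT, and of 0.12, 0.28 and −0.15 in KO, and their part was not tested. Mmp19 in monocyte/macrophage cells was 10.1-fold lower in WT at 72 h (log2 ratio −3.34) and 5.79-fold lower in KO. The KO value was a log2 ratio of −2.48 with only cells above a class minimum of UMIs and −2.64 with cells thinned to at most 1000 UMIs. Within clusters Mmp19 was lower too: in cluster 8, led by Ccl24, Saa3 and Arg1, it went from 459.9 to 103.9 CPM in WT and from 292.1 to 129.9 CPM in KO. In cluster 7 it went from 198.1 to 37.2 CPM and from 167.4 to 52.7 CPM. In cluster 13, led by Plac8, Ifitm6 and Ear2, which are genes of circulating monocytes, it went from 72.1 to 52.3 CPM and from 120.7 to 57.1 CPM.

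Mmp19 in neutrophils was also lower at 72 h. They held 77.5 CPM in WT sham, 149.5 in KO sham, 135.6 (WT) and 144.4 (KO) at ligation 24 h, then 4.19 CPM (5 UMIs in 536 cells) in WT and 16.2 CPM (7 UMIs in 207 cells) in KO at 72 h. The neutrophil clusters differed between these times: cluster 6 held 53.1% of the neutrophils in WT and 26.7% in KO at 24 h and under 1% at 72 h, and cluster 19 went from 5.34% to 48.5% in WT and from 5.25% to 30.4% in KO. Inside cluster 2, present at both times, Mmp19 went from 134.0 to 10.6 CPM (4 UMIs) in WT and from 138.1 to 6.28 CPM (1 UMI) in KO. Cluster 16, led by Siglecf, matched neutrophil markers best but stayed unnamed and is not in the class. At 24 h the neutrophil level was 59.8% of the monocyte/macrophage level in WT and 91.5% in KO. The summed monocyte/macrophage markers in neutrophils were 7559 CPM against 34960 CPM in monocyte/macrophage cells in WT, and 9479 against 41483 CPM in KO.

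Timp2 in monocyte/macrophage cells went the other way, 3.68-fold higher (3.37 to 4.03) at 72 h than at 24 h in WT and 2.76-fold higher (2.57 to 2.97) in KO. The share of cluster 4 went from 5.40% to 32.3% of the class cells in WT and from 11.6% to 15.8% in KO. By share of the class UMIs it went from 7.76% to 39.3% and from 14.3% to 35.6%. The gain was seen inside clusters as well, from 44.4 to 260.0 CPM in WT in cluster 4 and from 47.2 to 439.9 CPM in cluster 8. In KO the same clusters went from 47.2 to 228.8 CPM and from 47.6 to 300.1 CPM. Timp2 in cluster 17 was at 345.3 to 636.0 CPM in all 6 libraries, above the other clusters shown. Cluster 7 stayed below 50 CPM in every library. In monocyte/macrophage cells Timp1 was 3.04-fold lower at 72 h in WT and 2.32-fold lower in KO, so that the inhibitors Timp1 and Timp2 changed in opposite directions there. The KO value of Timp1 stayed past 2-fold in 9 of 13 other settings, and its smallest log2 ratio among them was −0.48.

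**Figure D4:**
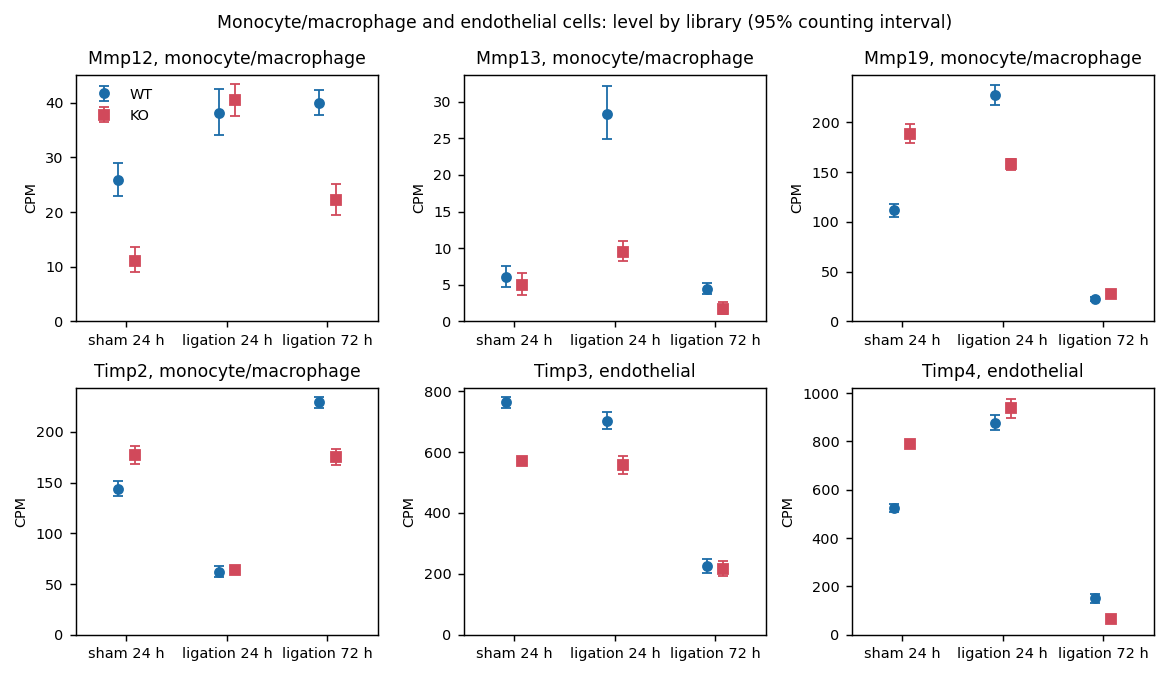
Points give the level (y axis, CPM) of Mmp12, Mmp13, Mmp19 and Timp2 in monocyte/macrophage cells and of Timp3 and Timp4 in endothelial cells by condition (x axis), with circles for WT, squares for KO and bars for the 95% counting interval. Mmp19 and Timp4 were lowest at ligation 72 h in both genotypes, and Timp2 was lowest at ligation 24 h.

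**Figure D5:**
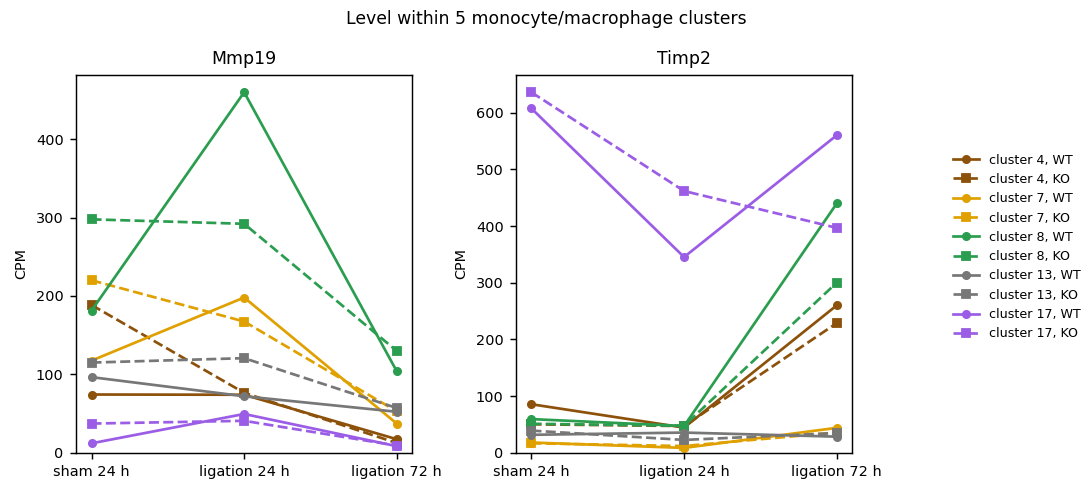
Lines give the level (y axis, CPM) of Mmp19 and Timp2 over the conditions (x axis) inside 5 monocyte/macrophage clusters, solid for WT and dashed for KO. Mmp19 was lower at 72 h than at 24 h in each cluster shown, and Timp2 was higher at 72 h in clusters 4 and 8.

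In fibroblasts Mmp2 at 72 h was 2.79-fold below its 24 h level in WT and 2.11-fold below in KO, Mmp3 4.81-fold and 11.1-fold, and Timp3 3.92-fold and 2.43-fold. As a mean over cells the Mmp2 log2 ratio in WT was −0.66, within 2-fold. The KO value of Mmp2 stayed past 2-fold in 10 of 13 other settings. Timp1 went from 2164 to 4801 CPM in WT, 2.22-fold higher (2.15 to 2.29), and from 3086 to 1963 CPM in KO. The KO difference turned from a log2 ratio of −0.65 to 0.13 as a mean over cells and to 0.18 with thinned cells, so that its direction depends on the weight of deep cells. Inside cluster 31 Mmp14 was at 42.7 CPM at 24 h and 199.0 CPM at 72 h in WT, 4.67-fold higher (3.48 to 6.38), and at 45.2 and 200.8 CPM in KO, 4.44-fold higher (3.29 to 6.06). Timp2 inside cluster 31 was 3.34-fold (2.75 to 4.09) and 2.98-fold (2.41 to 3.70) higher at 72 h.

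In endothelial cells Timp4 at 72 h was 5.85-fold below its 24 h level in WT and 14.4-fold below in KO. The summed 10 endothelial markers of the class went from 41810 to 20622 CPM in WT and from 35866 to 14495 CPM in KO, and the 7 erythroid markers in it from 29.7 to 30069 CPM and from 2658 to 11567 CPM. Their part in the result was not tested. In cluster 1, which is richest in it, Timp4 was at 806.7 CPM (103 UMIs) in WT and 586.2 CPM (47 UMIs) in KO at 72 h, 1.90-fold and 3.20-fold below 24 h. This cluster held 30.3% of the endothelial cells in WT and 32.2% in KO at 24 h, and 20.5% and 5.46% at 72 h. By share of the class UMIs, on which class levels rest, it held 32.3% and 29.8% at 24 h, and 7.99% and 5.99% at 72 h. Timp3 was 3.13-fold lower in the whole class in WT and 2.56-fold lower in KO, whereas in cluster 1 its ratio was 0.71 (0.53 to 0.93) in WT and 1.04 (0.75 to 1.42) in KO.

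The third comparison set KO against WT. After sham, 3 of 24 combinations were past 2-fold (2 higher, 1 lower), against 1.75% of all genes (1.08% higher, 0.665% lower). Of these, Timp3 and Timp4 in monocyte/macrophage cells are the low levels described with endothelial markers. The third was Mmp12 in monocyte/macrophage cells, 2.32-fold lower in KO (97 against 288 UMIs) and 2.39-fold lower without the top cell of each library. At ligation 24 h, 1 of 21 was past 2-fold, against 2.58% of all genes (1.03% higher, 1.55% lower). It was Mmp13 in monocyte/macrophage cells, 2.98-fold lower in KO and 5.33-fold lower without the single cells that held most of its UMIs in both libraries (48 against 118 UMIs). The 24 h libraries also differed in 16 genes known to respond to dissociation, with median log2 ratios, KO to WT, of −0.54 in fibroblasts, −0.45 in endothelial cells and −0.42 in monocyte/macrophage cells, and their part in these results was not tested.

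At ligation 72 h, 6 of 22 combinations were past 2-fold (2 higher, 4 lower), against 6.59% of all genes (5.04% higher, 1.55% lower). Mmp3 in fibroblasts was 4.13-fold lower in KO (68 against 319 UMIs). Inside cluster 14, with 45 and 6 UMIs, its ratio was 0.149 (0.052 to 0.351). Timp1 in fibroblasts was 2.45-fold lower in KO, but 1.56-fold lower inside cluster 31 and 1.18-fold lower inside cluster 15, led by Col1a1, Cthrc1 and Postn. Cluster 15 held 63.7% of the KO fibroblasts and 35.7% of their UMIs, at a median of about 1000 UMIs over the cluster. In cluster 14 the Timp1 ratio was 1.16 (0.68 to 1.96). As a mean over cells the log2 ratio of the class was −0.87, and −0.82 with thinned cells, both within 2-fold. Timp4 in endothelial cells was 2.31-fold lower in KO, and cluster 10, with a median of 1073 UMIs, held 70.8% of the KO endothelial cells against 13.8% of the WT cells. By share of the class UMIs, cluster 10 held 45.9% in KO against 6.37% in WT. Inside cluster 1 the Timp4 ratio was 0.73 (0.50 to 1.04). In monocyte/macrophage cells Mmp13 was 2.62-fold lower in KO (18 against 130 UMIs). Both combinations past 2-fold higher, Mmp2 and Timp3 in monocyte/macrophage cells, were at most 9.49 CPM. The dissociation genes had median log2 ratios of 0.44 in fibroblasts, 0.81 in endothelial cells and 0.68 in monocyte/macrophage cells, and their part was not tested. The shallow KO library and the monocyte/macrophage markers in its fibroblasts and endothelial cells lie beside the values of those classes, and their part was not tested.

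A list of 50 other family and pathway genes, of which 49 were in the files, was counted in fibroblasts and monocyte/macrophage cells. In fibroblasts at ligation 24 h against sham, 4 of 28 measured genes were higher and 1 lower past 2-fold in WT, with a median log2 ratio of −0.06, against 9.28% of all genes in either direction and a median of −0.06. In KO 3 of 29 were higher and 2 lower, against 13.3%, with medians of −0.48 for the list and −0.20 for all genes. In monocyte/macrophage cells 6 of 17 were higher and none lower in WT (6.25% of all genes), and 4 were higher and 2 lower in KO (8.99%). Plaur, the urokinase receptor, was 3.64-fold higher in WT and 2.88-fold higher in KO. Mmp8, the neutrophil collagenase, was 4.08-fold and 3.799-fold higher there. The summed neutrophil markers in monocyte/macrophage cells were 435 CPM in WT sham and 2356 CPM at ligation 24 h, and 547 and 3124 CPM in KO, and their part in Mmp8 was not tested.

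From 24 h to 72 h, 1 of 28 list genes was higher and 11 lower in WT fibroblasts, against 22.2% of all genes, and 5 were higher and 6 lower of 28 in KO, against 18.2%. In monocyte/macrophage cells 3 of 20 were higher and 6 lower in WT, against 19% of all genes, and 2 of 19 were higher and 7 lower in KO, against 12.3%. Lrp1, a receptor that clears proteases and their inhibitors, was 2.94-fold lower in WT fibroblasts. Serpine2, a serine protease inhibitor, was 2.75-fold lower in WT fibroblasts and 2.31-fold lower in KO fibroblasts. Mmp23 was 2.53-fold higher in WT fibroblasts. In monocyte/macrophage cells Plaur was 5.50-fold lower in WT and 4.14-fold lower in KO at 72 h, and Thbs1, which encodes a thrombospondin, was 5.04-fold lower in WT.

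For KO against WT, 1 of 29 list genes was past 2-fold in fibroblasts after sham (higher, against 1.77% of all genes) and 0 of 17 in monocyte/macrophage cells (2.24%). At ligation 24 h it was 0 of 27 in fibroblasts (3.06%) and 0 of 17 in monocyte/macrophage cells (1.93%). At ligation 72 h, 3 of 27 were higher and 3 lower in fibroblasts (12%), and 5 of 22 were higher and 1 lower in monocyte/macrophage cells (4.33%). Among these, Mmp23 in fibroblasts was at 178 CPM in WT and 82.0 CPM in KO, 2.18-fold lower.

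Across 38 combinations of class and library with at least 100 cells, the genes whose levels were most like those of each member were found among 4493 genes by the Pearson correlation of log2(CPM + 10). The points share libraries and differ mainly by cell class, so the values are a description. Mmp2 was most like Dpep1 (r = 0.98), Mmp3 like Ms4a4d (r = 0.98), Timp3 like Nfib (r = 0.99) and Timp4 like Rbp7 (r = 0.98). Timp1 was most like Tmem97 (r = 0.91), Timp2 like Cd63 (r = 0.92) and Mmp14 like Vim (r = 0.91). Mmp19 was most like Tfec (r = 0.78), Mmp12 like Spint1 (r = 0.88) and Mmp13 like Ms4a8a (r = 0.82).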

How the data were processed

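Per the file headers, the authors deposited raw UMI counts, whole numbers produced by Cell Ranger 6.0.0, and the submitters' processing notes give the build mm10. The annotation version and any later filter are not given in the sources used here. Cells with under 200 genes or over 20% mitochondrial UMIs were left out, and the highest doublet scores of Scrublet (in scanpy 1.11.5) were removed at 0.8% per 1000 deposited cells. The caller's own threshold marked only 0 to 19 cells a library. Log-normalized values of 2000 variable genes, without the members and pathway genes, gave 30 principal components and 20 neighbours per cell, and the graph of shared neighbours was clustered by Leiden (leidenalg 0.10.2) at resolution 1 in Python 3.11.15, with no correction between libraries. A class needed at least 3 markers found in 10% of the cells of a cluster, and the highest mean fold then named it. This scoring rule was set after the clusters had been seen, and 2 clusters stayed unnamed.

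UMIs were summed per library and class. CPM have exact Poisson intervals, and ratios the exact conditional interval of 2 Poisson counts. Cells are not replicates, and p-values were not computed. A count of 0 was set to 3 counts. The ratio and its interval were tested on simulated data. All 10 members are named. From the pathway list, at most the 2 highest and 2 lowest ratios past 2-fold were named per comparison and class, with 100 CPM and 0.25 of the level of the highest class. A result that met this rule is not reported here. The members and lists were chosen with earlier results of these data known.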

Additional observations from a re-analysis of the deposited data

Results flagged for a closer look

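Several differences, as log2 ratios of single libraries, had opposite signs in related comparisons, and some of the values were small. None of these differences between comparisons was tested, and the KO library at ligation 72 h is the shallow one. KO against WT in fibroblasts, Mmp3 was 0.13 after sham and −2.05 at ligation 72 h. Timp1 in fibroblasts was 0.19 after sham, 0.51 at ligation 24 h and −1.29 at ligation 72 h. Timp4 in endothelial cells was 0.59 after sham, 0.094 at ligation 24 h and −1.21 at ligation 72 h. From sham to ligation 24 h, the monocyte/macrophage value of Mmp19 was 1.03 for WT and −0.26 for KO. The median over all measured genes of that class was −0.11 for WT and −0.28 for KO, so the KO value lay near it. From ligation 24 h to 72 h, Timp1 in fibroblasts was 1.15 in WT and −0.65 in KO. The direction of this KO value depends on the weight of deep cells, as described above.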

How the results depend on the processing

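No paired analysis was possible because each group has 1 library. Of the 10 genes, the number with over 50% of their UMIs in 1 class was 8 under every alternative run, with no count over all genes beside it. The counts past 2-fold moved by over 1.5 times as follows, and the cause was not tested. The number of combinations measured differs between settings, and no share of all genes stands beside these counts. With cells thinned to at most 1000 UMIs, ligation 24 h against sham had 3 in WT and 5 in KO, and KO against WT had 0 after sham and 0 at ligation 24 h. Over all comparisons 109 combinations could still be measured with thinned cells. Of these, 33 were past 2-fold without thinning, and 30 of the 33 stayed so. With each cell named by its highest marker score there were 4 for ligation 24 h against sham in WT and 2 for KO against WT at ligation 24 h. The latter was also 4 without doublet removal, 4 from 20 UMIs and 2 without the top cell of a gene, and ligation 24 h against sham in KO was 14 from 20 UMIs. With only classes at 0.25 or more of the highest level, the counts were 4 and 4 for ligation 24 h against sham in WT and KO, 9 for 72 h against 24 h in KO, and 1 for KO against WT after sham. The top-cell and 0.25 settings were chosen after seeing the data. Timp3 in monocyte/macrophage cells, KO against WT after sham, turned to −0.0016 (log2) without doublet removal, and Timp1 in endothelial cells, 72 h against 24 h in KO, to −0.20 at a mitochondrial limit of 10%. Low counts limit the values of Mmp13 and of several clusters at 72 h, where the KO library is the shallow one.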

Other observations

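Beyond the 4 main classes, mesothelial cells, which line the heart surface, held Timp1 at 3755 CPM in WT sham and 2861 CPM in KO sham, from 9 and 19 cells, and at 1607 CPM in KO ligation 72 h, from 239 cells. In sham hearts this lay above the fibroblast levels of 721.5 and 823.9 CPM, and mesothelial cells held a mean of 8.57% of all Timp1 UMIs.

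Mural cells also held Timp3. Smooth muscle cells lay between 390.4 and 671.3 CPM of Timp3 in the 6 libraries, and pericytes were at 816.7 CPM in WT sham and 359.9 CPM in KO sham. Timp3 made up 90.9% of the TIMP UMIs of pericytes in WT sham and 69.0% in KO sham, but 26.3% in WT ligation 72 h, where Timp1 made up 51.6% (49 of 95 UMIs). That last class had only 35 cells, with 286405 UMIs in all and a median of 3204 per cell. The weight of single deep cells in its shares was not tested. Lymphatic endothelial cells were at 1350 CPM (39 cells) and 1656 CPM (30 cells) of Timp3 in WT and KO sham. In dendritic cells Mmp12 was at 50.2 CPM in WT sham and 10.1 CPM in KO sham, and 1 cell held 87.8% of its UMIs in WT ligation 24 h.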
